A study of Mus musculus with 9 samples.

Results

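Levels of 10 listed contractile genes were followed: Acta2, Actg2, Tagln, Tagln2, Cnn1, Cnn2, Myl9, Tpm1, Tpm2 and Cald1. They were taken by symbol from a gene table of 56289 Ensembl mouse identifiers, and all 10 were found. RNA had been sequenced from 9 libraries, 3 per group. The TNF plus WBG group received Wang Bi granules, a Chinese herbal preparation, along with tumour necrosis factor alpha (TNF) over 24 h. The TNF group received tumour necrosis factor alpha alone for 24 h, and the untreated group received neither, with no culture time given. All 9 libraries are labelled RAW264.7, a macrophage-like line of BALB/c mice, grown in DMEM with 10% serum, and the series asks which genes differ between blank, induced and granule-treated cells. Since the untreated culture time is not given, time in culture and the factor cannot be told apart. The labels do not say that replicates were separate cultures, and each p-value therefore reflects the spread among these samples alone, which may be technical.

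These genes encode the thin filament of contractile cells and the proteins that tune it. Actin filaments are wrapped by tropomyosins and decorated by calponins, transgelins and caldesmon, and they are pulled by myosin II, whose regulatory light chain must be phosphorylated for force. In smooth muscle and in fibroblasts that become myofibroblasts, serum response factor with its cofactors drives many of them through the CArG box, and TEAD factors act through the MCAT element. Most of these families have forms that are abundant in smooth muscle (Acta2, Actg2, Tagln, Cnn1, Myl9) and forms that most cells use (Tagln2, Cnn2, and among relatives outside the list Actb, Actg1, Cnn3, Tpm3 and Tpm4).

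The 10 genes fell into 2 classes of level: 6 were well expressed in every library, with means over the 9 libraries between 29.8 and 188 FPKM (fragments per kilobase of gene model, scaled to sequencing depth, a level corrected for gene length), and Actg2, Tagln, Cnn1 and Myl9 stayed below 1 FPKM in all 9. The 4 low genes are the enteric smooth muscle actin, the smooth muscle transgelin, basic calponin and a regulatory light chain of myosin, and together they made up 0.0275 to 0.206% of the summed level of the 10. Myh11, the smooth muscle myosin heavy chain, did not exceed 0.0392 FPKM in any library, and Myocd, the smooth muscle coactivator of serum response factor, did not exceed 0.0091 FPKM. The listing was named for myofibroblasts, but of the smooth muscle genes named above Actg2, Tagln, Cnn1 and Myl9 were near 0. The genes are therefore called here only by their list. Levels are given per gene, so transcript forms of Tpm1, Tpm2 and Cald1 cannot be told apart.

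Cell type markers were read in the same libraries. Of 12 fibroblast markers, 10 averaged 1 FPKM or more, and their summed level ran over 4039.95 to 4117.59 FPKM with TNF plus WBG, 4145.9 to 4366.32 with TNF and 3851.31 to 4109.16 untreated. With TNF against untreated 2 of the 10 rose (Col1a1 and Col1a2) and 2 fell (Postn and Pdgfrb), beside 6.43% of all genes that rose and 4.21% that fell. Of 12 macrophage markers, 2 (Cd68 and Cd14) reached that mean, the sums were 7.92 to 10.28 FPKM with TNF plus WBG, 7.05 to 8.05 with TNF and 6.05 to 7.36 untreated, and Ptprc, Itgam, Adgre1 and Tyrobp were listed at 0 throughout, which goes against the labelled cell type. Of 12 vascular smooth muscle and pericyte markers, 2 (Mcam and Notch3) had such a mean, and the sums were 88.37 to 95.44 FPKM with TNF plus WBG, 89.4 to 92.68 with TNF and 86.58 to 91.32 untreated, with Kcnj8 and Abcc9 listed at 0. Of 12 striated muscle markers, 2 (Tnnt1 and Tnnt2) had such a mean, and the sums were 12.61 to 13.79 FPKM with TNF plus WBG, 11.82 to 14.1 with TNF and 7.91 to 10.21 untreated, with Myod1 and Ckm listed at 0; the treated and untreated sums did not overlap, and Tnnt2, a cardiac troponin gene, rose with TNF (log2 fold change 0.57 ± 0.10, limma adjusted p = 0.00819). None of 6 endothelial markers and 1 of 6 epithelial and mesothelial markers (Msln) had a mean of at least 1 FPKM. The sum of the epithelial and mesothelial list was 47.73 to 56.28 FPKM with TNF plus WBG, 50.86 to 56.36 with TNF and 41.13 to 47.65 untreated, and Msln rose with TNF (0.30 ± 0.08, limma adjusted p = 0.0428). In bulk samples, fewer cells of a type and less RNA per cell cannot be told apart, and the part these marker levels have in the results was not tested. The sum of FPKM over all genes was 427781 to 436809 per library. Low values of single-exon genes lay on whole steps more often than even spread would give (39.1 to 41.8% within 0.02 of a step, against 4%), and the steps put the deepest library at 1.38 times the shallowest, but the absolute depth is unknown.

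Promoters were available for 8 of the 10 genes (250 bases before to 50 after the annotated start; RefSeq, GRCm38.p6). The promoters of the 3 genes that rose with TNF are shown first, with the MCAT element, CATTCC or its reverse complement, in capitals. Tpm1 lies on the minus strand at chr9:67049164-67049463, Tagln2 on the plus strand at chr1:172499996-172500295 and Acta2 on the minus strand at chr19:34255324-34255623; each sequence runs along the gene's own strand.
Tpm1: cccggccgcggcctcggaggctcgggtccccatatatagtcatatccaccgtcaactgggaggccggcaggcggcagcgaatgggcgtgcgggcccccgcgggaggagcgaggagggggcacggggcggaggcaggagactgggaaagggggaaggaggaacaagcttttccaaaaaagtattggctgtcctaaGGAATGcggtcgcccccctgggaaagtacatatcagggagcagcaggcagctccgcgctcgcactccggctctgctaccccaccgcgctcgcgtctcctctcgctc
Tagln2: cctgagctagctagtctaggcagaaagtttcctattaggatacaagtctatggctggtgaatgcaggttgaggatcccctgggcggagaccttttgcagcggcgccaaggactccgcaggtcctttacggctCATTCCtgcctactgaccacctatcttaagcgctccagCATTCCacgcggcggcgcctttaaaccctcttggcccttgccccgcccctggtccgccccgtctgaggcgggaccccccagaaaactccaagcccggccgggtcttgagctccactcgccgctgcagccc
Acta2: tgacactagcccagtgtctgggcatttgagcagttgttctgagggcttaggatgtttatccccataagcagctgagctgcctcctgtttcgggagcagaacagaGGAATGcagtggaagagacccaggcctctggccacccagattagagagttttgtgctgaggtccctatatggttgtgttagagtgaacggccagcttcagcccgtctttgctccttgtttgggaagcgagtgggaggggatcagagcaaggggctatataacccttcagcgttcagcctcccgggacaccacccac
Counted from the start, the element covers bases -56 to -51 in Tpm1, -146 to -141 in Acta2, and both -118 to -113 and -80 to -75 in Tagln2. Cald1, which was not called in any comparison, also held it in the first of its 2 promoters, at -153 to -148. The element was thus found in 4 of the 8 genes, which have 9 promoters together, and it occurs in 14.7% of all 32851 promoters of the table. The promoters shown were picked by their calls, and a link of the element to the rise was not tested.

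A CArG box in its strict form (a pair of C, then 6 bases that are A or T, then a pair of G) was found in 2 of the 8 genes (9 promoters), Cnn2 and Myl9, and in 1.63% of all promoters. Boxes with a mismatch were not counted. The strict box is given in capitals below, to set these promoters beside the 3 above, which held no strict box in these 300 bases. Boxes a single base from the strict form can be read by eye, for example ccctatatgg and ccttgtttgg in Acta2 and ccatatatag and ccaaaaaagt in Tpm1. The Myl9 promoter below also holds such a box, ccttgtaagg. No full search for such boxes was made, and their share over all promoters was not computed. Cnn2 lies on the plus strand at chr10:79988350-79988649 and Myl9 on the plus strand at chr2:156775214-156775513.
Cnn2: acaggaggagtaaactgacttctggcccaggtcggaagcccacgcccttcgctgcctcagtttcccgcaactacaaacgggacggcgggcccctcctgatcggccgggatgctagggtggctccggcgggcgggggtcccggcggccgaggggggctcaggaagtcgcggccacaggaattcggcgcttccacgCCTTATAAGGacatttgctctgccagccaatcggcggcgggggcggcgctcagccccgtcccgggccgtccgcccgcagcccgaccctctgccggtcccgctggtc
Myl9: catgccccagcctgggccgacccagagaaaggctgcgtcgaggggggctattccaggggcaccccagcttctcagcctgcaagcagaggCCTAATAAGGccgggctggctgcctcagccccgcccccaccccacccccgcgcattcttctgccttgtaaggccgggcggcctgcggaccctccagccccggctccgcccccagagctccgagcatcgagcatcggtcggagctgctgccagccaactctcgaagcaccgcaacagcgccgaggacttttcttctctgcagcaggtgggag
The box covers bases -56 to -47 in Cnn2, which was well expressed, and -161 to -152 in Myl9, which was listed at or near 0. The NF-kB site was found in Tagln2 at -11 to -2 and in Myl9 at -195 to -186, against 6.93% of all promoters. The AP-1 site, TGANTCA, was found in the second promoter of Cald1 at -197 to -191, against 7.81% of all promoters. Both strands were searched, no match of one motif overlapped another, and none of the 4 motifs was found in Tpm2 or Cnn1. A match describes letters in a window and not a bound site.

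**Figure D1:**
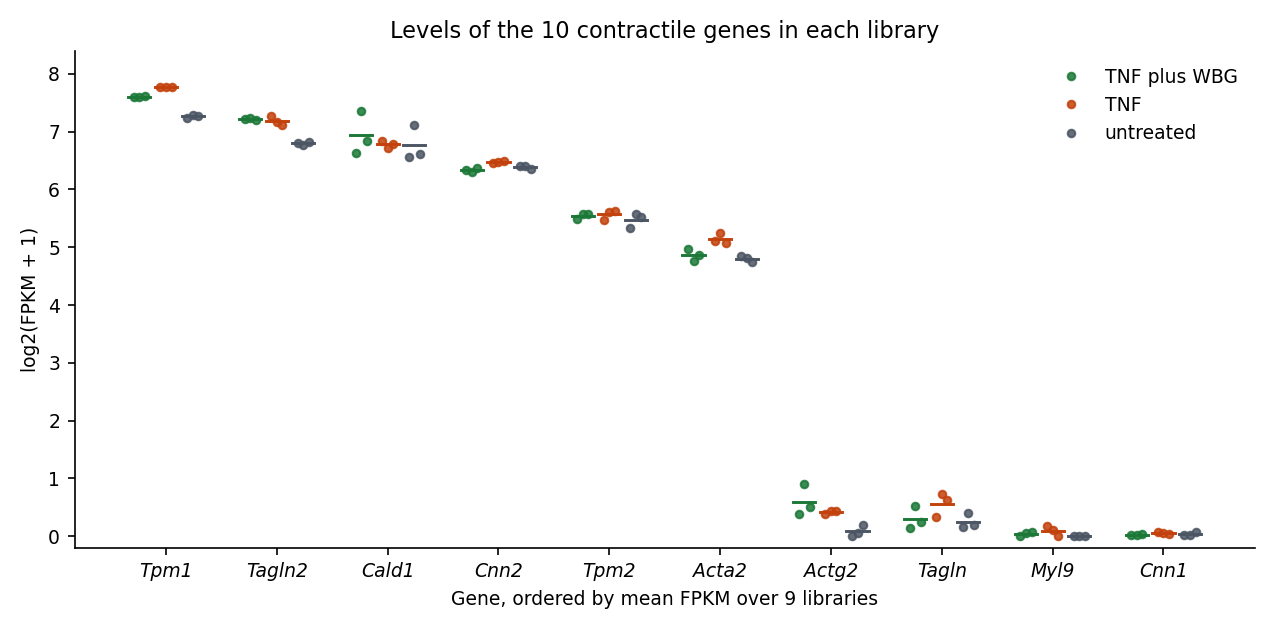
Level of each of the 10 genes as log2(FPKM + 1) (y axis), genes ordered by mean FPKM (x axis); each point is 1 library and each bar the mean of 3. The 6 higher genes lie above 4 on this scale in every library, Tpm1 the highest, and 4 lie below 1.

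By mean FPKM the order was Tpm1 (188), Tagln2 (134), Cald1 (114), Cnn2 (83.6), Tpm2 (45.3), Acta2 (29.8), Actg2 (0.312), Tagln (0.309), Myl9 (0.033) and Cnn1 (0.028). Neighbours kept this order in all 9 libraries except at 3 places. Tagln2 was above Cald1 in 7 of 9 libraries, Actg2 above Tagln in 4 of 9, and Myl9 above Cnn1 in 4 of 9. Cald1 was above Tagln2 in replicate 2 of the TNF plus WBG group and of the untreated group. The pairs were not tested. Among all 56289 identifiers Tpm1 ranked 266th and Acta2 2479th by mean.

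For the comparisons, genes with at least 1 FPKM in at least 3 of the 9 libraries were kept, which left 13026 genes and 6 of the 10. Levels were tested with limma on log2(FPKM + 1), and calls were made at adjusted p under 0.05, by Benjamini-Hochberg across the 13026 genes. With TNF against untreated, 3 of the 6 rose (Tpm1, Tagln2 and Acta2) and 0 fell, beside 6.43% of all genes called higher and 4.21% called lower. In 4 of the 6, all TNF libraries lay above all untreated ones, beside 30.0% of all genes whose groups did not overlap in either direction. The median log2 fold change was 0.22 over the 6 and 0.0 over all genes. At an unadjusted p under 0.05, 4 of the 6 were higher and 0 lower, beside 13.1% of all genes higher and 10.9% lower.

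With TNF plus WBG against TNF, limma called 0 of the 6 higher and 0 lower, beside 0.0691% of all genes called higher and 0.0307% called lower, so hardly any gene was called in this comparison. At an unadjusted p under 0.05, 0 of the 6 were higher and 3 lower, beside 4.18% of all genes higher and 4.88% lower. These were Acta2, Cnn2 and Tpm1, and in each all 3 TNF plus WBG libraries lay below all 3 TNF libraries, beside 14.7% of all genes without overlap in either direction. In the same 3 genes the TNF libraries were also the highest 3 of the 9, as in 3.39% of all genes. The median log2 fold change was -0.08 over the 6 and -0.003 over all genes. For TNF plus WBG against untreated, 2 rose (Tpm1 and Tagln2) and 0 fell, beside 5.52% of all genes called higher and 3.67% called lower. In 2 of the 6 the groups did not overlap, beside 28.1% of all genes, and the median was 0.12 over the 6 and -0.003 over all genes. The comparisons share libraries, so their counts are not independent.

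**Figure D2:**
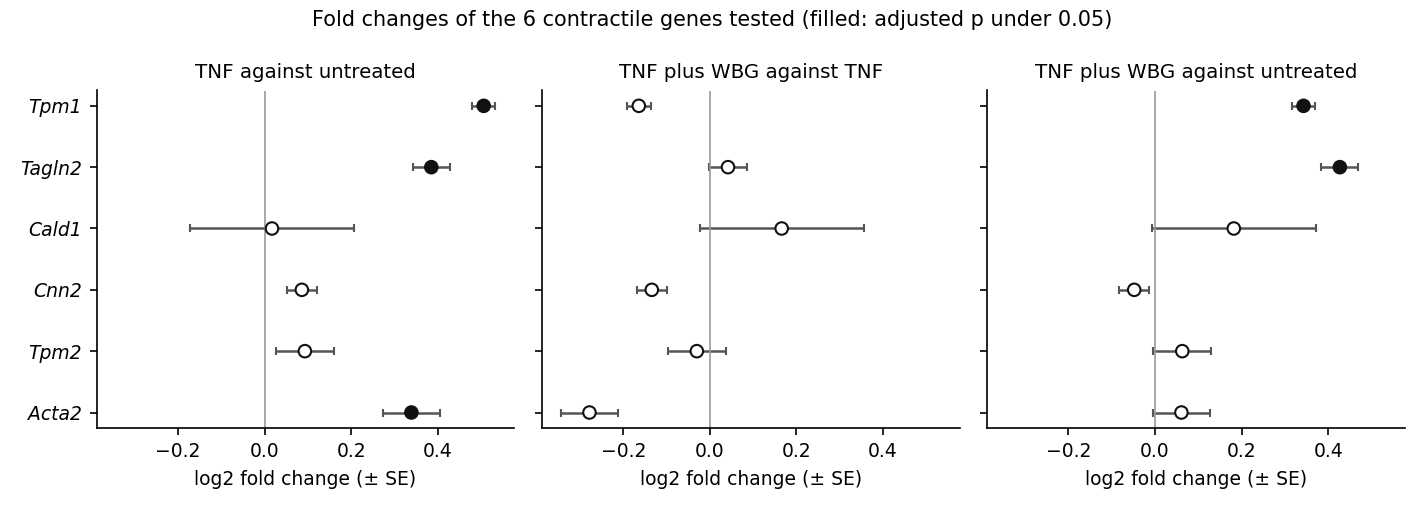
Log2 fold change (x axis) with its standard error for the 6 tested genes (rows), 1 panel per comparison; filled points have an adjusted p under 0.05. Tpm1, Tagln2 and Acta2 are filled for TNF against untreated, none is for TNF plus WBG against TNF, and Tpm1 and Tagln2 are for TNF plus WBG against untreated.

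Acta2 (ENSMUSG00000035783), the smooth muscle alpha-actin that is built into stress fibres of myofibroblasts, had 30.2, 26.1 and 28.2 FPKM in the TNF plus WBG libraries, 33.6, 37.0 and 32.5 FPKM in the TNF libraries and 27.8, 27.0 and 26.0 FPKM in the untreated ones. All TNF libraries were above all others, and the TNF plus WBG and untreated libraries overlapped. The level was 1.28-fold higher with TNF than untreated (log2 fold change 0.34 ± 0.07 SE, limma adjusted p = 0.0115), and over 18 alternative settings the adjusted p reached at most 0.0472, without untreated replicate 3. The level with TNF plus WBG was 0.82 times that with TNF (log2 fold change -0.28 ± 0.07, limma adjusted p = 0.357), which did not pass. TNF plus WBG against untreated did not pass either (log2 fold change 0.06 ± 0.07, adjusted p = 0.655).

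Actg2 (ENSMUSG00000059430), the enteric smooth muscle gamma-actin, had 0.308, 0.861 and 0.428 FPKM in the TNF plus WBG libraries, 0.310, 0.360 and 0.356 in the TNF libraries and 0, 0.035 and 0.148 in the untreated ones. The untreated libraries were the lowest 3 of the 9, but none reached 1 FPKM and the gene was below the filter. In a fit without the filter, over 31192 genes, its log2 fold change was 0.34 ± 0.12 for TNF against untreated (limma adjusted p = 0.255) and 0.52 ± 0.12 for TNF plus WBG against untreated (adjusted p = 0.0793).

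The other actins were far more abundant. Actb, cytoplasmic beta-actin, had 507, 499.95 and 480.5 FPKM with TNF plus WBG, 529.7, 541 and 536 with TNF and 463, 485 and 493 untreated. It rose 1.11-fold with TNF (log2 fold change 0.16 ± 0.03, limma adjusted p = 0.0202), but the call was lost without untreated replicate 1 (adjusted p = 0.0581), without TNF replicate 2 (0.0726), without TNF replicate 3 (0.0655) and under quantile normalization (0.0737). The call was also lost without the filter (limma adjusted p = 0.064) and without the trend (0.0712). Actg1, cytoplasmic gamma-actin, spread from 394 to 512 FPKM with TNF plus WBG, 418 to 679.8 with TNF and 382 to 512 untreated, with no call (TNF against untreated log2 fold change 0.23 ± 0.19, adjusted p = 0.521). In sequence, 37.4% of its 50-base stretches also occur in other genes, so reads may be shared. Acta1 and Actc1, the striated muscle actins, stayed below 0.1 FPKM. Acta2 and Actg2 together were 2.90 ± 0.35% of the summed FPKM of the 6 actins with TNF plus WBG, 3.23 ± 0.52% with TNF and 2.87 ± 0.085% untreated (SD, n = 3), with an exact permutation p of 0.4 for TNF against untreated.

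Tagln2 (ENSMUSG00000026547), the transgelin of most non-muscle cells, had 149, 150.2 and 146 FPKM with TNF plus WBG, 154, 142 and 137 with TNF and 110.1, 109 and 112 untreated. Every treated library was above every untreated one, and the 2 treated groups overlapped. It was 1.31-fold higher with TNF than untreated (log2 fold change 0.39 ± 0.04, limma adjusted p = 0.000563) and 1.35-fold higher with TNF plus WBG than untreated (0.43 ± 0.04, adjusted p = 0.000337). The difference of TNF plus WBG from TNF was 0.04 ± 0.04 on the log2 scale (adjusted p = 0.824).

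Tagln (ENSMUSG00000032085), smooth muscle transgelin and a widely used smooth muscle marker, had 0.105, 0.435 and 0.180 FPKM with TNF plus WBG, 0.263, 0.669 and 0.542 with TNF and 0.123, 0.315 and 0.149 untreated. The groups overlapped in every comparison. Its exons overlap Gm48529 and Pcsk7 on the opposite strand, 58.3% of its 50-base stretches occur in them, and it is not stated that reads were counted by strand, so these low levels and those of the overlapping genes cannot be told apart. Tagln made up 0.161 ± 0.11% of the 3 transgelins with TNF plus WBG, 0.344 ± 0.15% with TNF and 0.178 ± 0.097% untreated (SD, n = 3). Tagln3, the neuronal transgelin, lay between 0 and 0.419 FPKM.

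Cnn2 (ENSMUSG00000004665), the calponin found in many motile and adherent cells, had 80.3, 77.5 and 82.3 FPKM with TNF plus WBG, 87.0, 87.7 and 89.0 with TNF and 83.6, 84.1 and 80.7 untreated. The TNF libraries were the highest 3 of the 9. The steps were small, with a log2 fold change of 0.09 ± 0.04 for TNF against untreated (limma adjusted p = 0.171) and -0.13 ± 0.04 for TNF plus WBG against TNF (adjusted p = 0.407), and neither passed. TNF plus WBG against untreated was -0.05 ± 0.04 (adjusted p = 0.468). Cnn1 (ENSMUSG00000001349), basic calponin and a late marker of smooth muscle, had 0.018, 0.019 and 0.022 FPKM with TNF plus WBG, 0.049, 0.037 and 0.022 with TNF and 0.016, 0.019 and 0.051 untreated. It was at most 0.025% of the calponins in any library. Cnn3, a calponin outside the list, had 124 to 140.2 FPKM with TNF plus WBG, 140 to 145 with TNF and 122 to 146 untreated, with no call (0.05 ± 0.07, adjusted p = 0.72 for TNF against untreated).

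**Figure D3:**
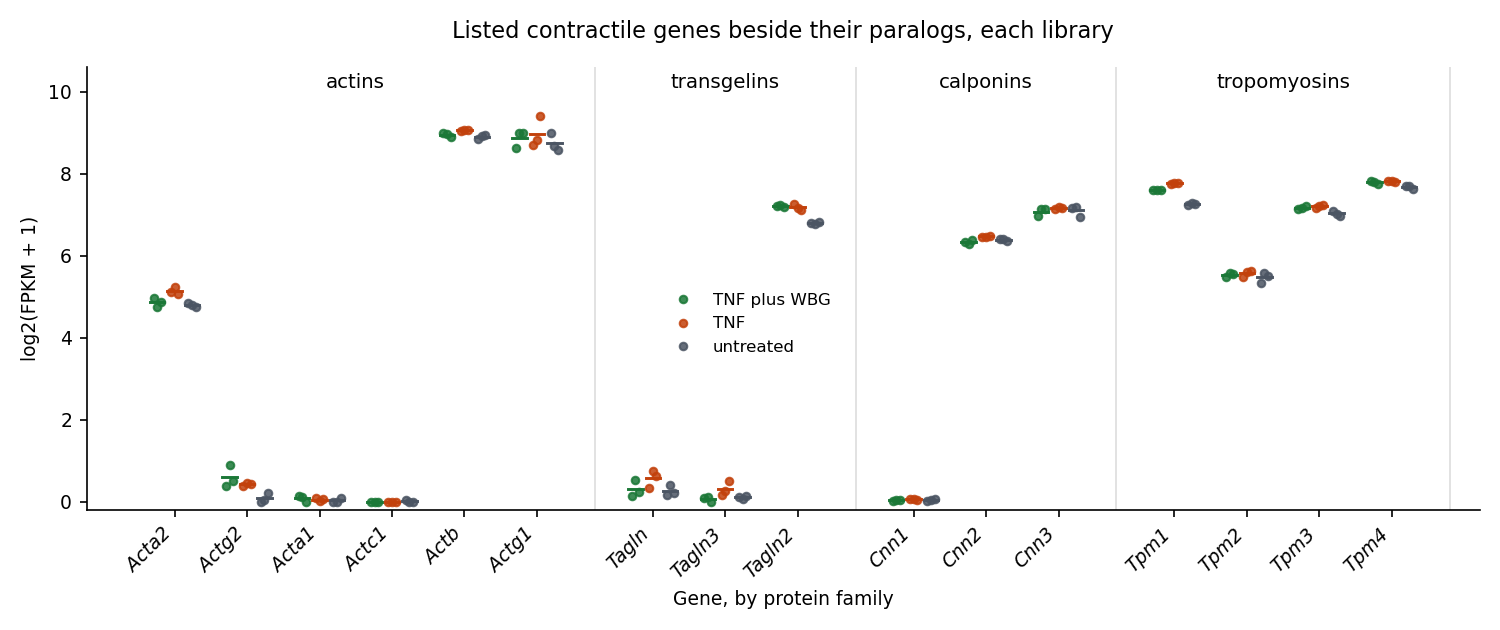
Level of the listed genes and their paralogs as log2(FPKM + 1) (y axis), grouped by protein family (x axis); each point is 1 library and each bar the mean of 3. Actg2, Tagln and Cnn1 lie near 0 beside family members above 6, and Acta2 lies between Actg2 and Actb.

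Tpm1 (ENSMUSG00000032366), a tropomyosin of stress fibres and muscle, had the highest level and the smallest adjusted p for TNF against untreated of the 6 tested. It had 194, 193 and 195 FPKM with TNF plus WBG, 217, 218 and 218 with TNF and 150.3, 155 and 153 untreated. The 3 groups did not overlap at any point. It was 1.42-fold higher with TNF than untreated (log2 fold change 0.51 ± 0.03, limma adjusted p = 5.57e-06) and 1.27-fold higher with TNF plus WBG than untreated (0.34 ± 0.03, adjusted p = 7.29e-05). Between TNF plus WBG and TNF the ratio was 0.892 (log2 fold change -0.16 ± 0.03, limma adjusted p = 0.148), which did not pass.

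Tpm2 (ENSMUSG00000028464), the beta-tropomyosin of muscle and stress fibres, had 43.8, 46.5 and 46.4 FPKM with TNF plus WBG, 43.6, 47.7 and 48.4 with TNF and 39.5, 46.6 and 44.9 untreated. All groups overlapped and no comparison passed (TNF against untreated 0.09 ± 0.07 on the log2 scale, limma adjusted p = 0.454). Among tropomyosins outside the list, Tpm3 had 141, 143 and 147 FPKM with TNF plus WBG, 143, 148 and 151 with TNF and 137, 129 and 125 untreated. Tpm4 had 224, 223 and 216 FPKM with TNF plus WBG, 226, 227 and 221 with TNF and 208, 209 and 198 untreated. Both are cytoskeletal tropomyosins of many cells, and both rose slightly with TNF, Tpm3 by 0.18 ± 0.04 (limma adjusted p = 0.0252) and Tpm4 by 0.13 ± 0.03 (adjusted p = 0.0366) on the log2 scale. The Tpm3 call was lost without untreated replicate 2 (0.0748) or 3 (0.0865) and without TNF replicate 2 (0.0802) or 3 (0.0912). The Tpm4 call was lost without any one of the 9 libraries except TNF plus WBG replicate 3, with an adjusted p of up to 0.118, reached without untreated replicate 3. Under quantile normalization the log2 fold change of Tpm4 was 0.06 (adjusted p = 0.479), and that of Tpm3 was 0.15 (adjusted p = 0.0183). Both calls were also lost without the filter, without the trend and with only the 6 libraries compared (adjusted p of 0.0541 to 0.0632 for Tpm3 and 0.0676 to 0.11 for Tpm4). Of their 50-base stretches, 23.2% for Tpm3 and 15.7% for Tpm4 also occur in other genes.

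Shares of the 4 tropomyosins were also compared. Tpm1 made up 32.1, 31.9 and 32.3% of their summed FPKM with TNF plus WBG, 34.5, 34.1 and 34.1% with TNF and 28.1, 28.8 and 29.4% untreated. The groups did not overlap, with a difference of 5.45 percentage points for TNF against untreated and -2.12 for TNF plus WBG against TNF. The exact two-sided permutation p was 0.1 for each, the smallest that 3 against 3 allows, and 0.6 after adjustment over the 18 share comparisons. Tpm2 made up 7.54 ± 0.24% with TNF plus WBG, 7.32 ± 0.34% with TNF and 8.22 ± 0.71% untreated (SD, n = 3, exact permutation p = 0.3 for TNF against untreated).

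**Figure D4:**
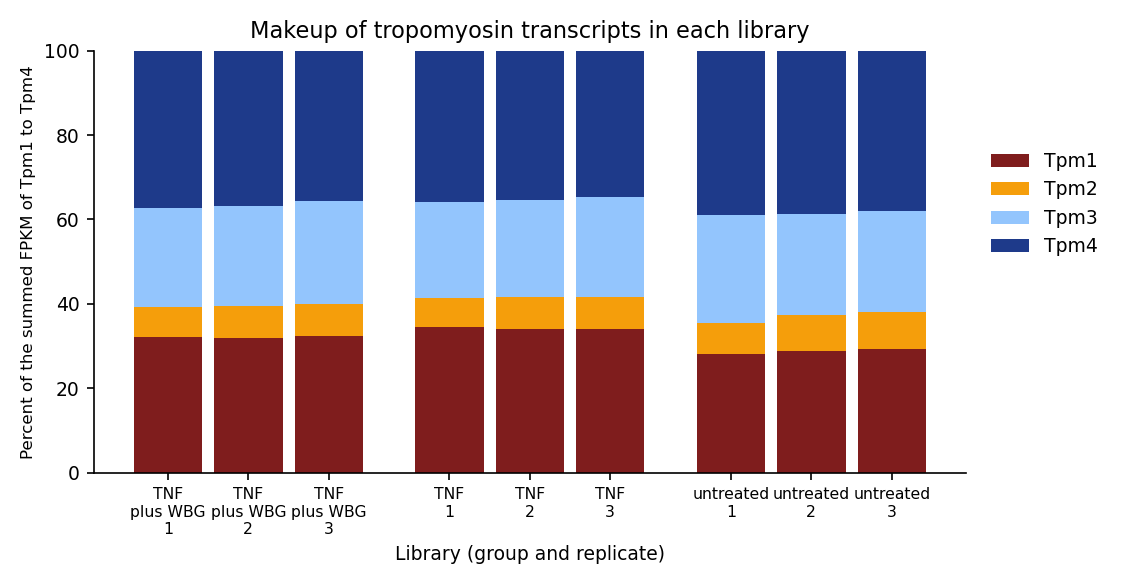
Percent of the summed FPKM of Tpm1 to Tpm4 (y axis) held by each gene in each library (x axis). Tpm1 holds 31.9 to 32.3% with TNF plus WBG, 34.1 to 34.5% with TNF and 28.1 to 29.4% untreated, and Tpm4 is the largest part in every library.

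Cald1 (ENSMUSG00000029761), caldesmon, which holds back the myosin ATPase on actin, had 98.5, 162 and 114 FPKM with TNF plus WBG, 113, 104 and 109 with TNF and 93.8, 137 and 96.5 untreated. One library stood high in the TNF plus WBG group and one in the untreated group, replicate 2 of each, and the groups overlapped. The highest value was 1.65 times the lowest with TNF plus WBG, a range that 1.23% of genes at 50 FPKM or more matched, and 1.46 times untreated, matched by 2.70%, against 1.08 times with TNF. No comparison passed, and the log2 fold changes hung on these libraries. TNF against untreated was 0.02 ± 0.19 (limma adjusted p = 0.971), and 0.19 without untreated replicate 2. TNF plus WBG against TNF was 0.17 ± 0.19 (adjusted p = 0.845), and -0.04 without TNF plus WBG replicate 2. TNF plus WBG against untreated was 0.18 ± 0.19 (adjusted p = 0.645), -0.02 without TNF plus WBG replicate 2 and 0.36 without untreated replicate 2.

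Myl9 (ENSMUSG00000067818), a regulatory light chain of smooth muscle and non-muscle myosin II, had 0, 0.041 and 0.047 FPKM with TNF plus WBG, 0.126, 0.079 and 0 with TNF, and was listed at 0 in all 3 untreated libraries. It was at most 0.0354% of the summed FPKM of Myl9, Myl12a and Myl12b in any library, where Myl12a and Myl12b encode the other regulatory light chains of non-muscle myosin II.

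Summed over the 10 genes, the level was 596, 657 and 613 FPKM with TNF plus WBG, 648, 638 and 635 with TNF and 505, 559 and 513 untreated. Every treated library was above every untreated one, and the high TNF plus WBG and untreated sums were those of replicate 2, where Cald1 was high. Tpm1, Tagln2 and Cald1 are its largest parts, and it is given as a description with no test.

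Genes with the profile most like that of Tpm1 were sought among 9112 other genes with a mean of at least 5 FPKM, by the root mean square difference of log2(FPKM + 1) over the 9 libraries after centring each gene. The closest 5 were Adamts4, an aggrecan-cleaving protease (0.0329), Tgm2, a protein-crosslinking transglutaminase (0.0356), Ccnd1, cyclin D1 (0.0412), Aif1l, an actin-binding protein (0.0442), and Gpx4, a glutathione peroxidase of membrane lipids (0.0444). The other listed genes, which were not among the candidates, lay at 0.0966 for Tagln2, 0.135 for Acta2, 0.183 for Tpm2, 0.193 for Cnn2 and 0.301 for Cald1. The closest 5 are the smallest of 9112 distances, so genes not picked for likeness would mostly lie farther, and nothing is drawn from the difference. Adamts4 had 33.6, 32.6 and 33.9 FPKM with TNF plus WBG, 37.9, 36.4 and 36.3 with TNF and 24.2, 26.3 and 25.1 untreated. That is the order of groups seen for Tpm1, for which it was picked.

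The rest of the contractile machinery was read from lists. For TNF against untreated, the counts of each list stand beside 6.43% of all genes called higher and 4.21% called lower. For TNF plus WBG against untreated, these shares of all genes were 5.52% and 3.67%. Of 8 thin-filament and calponin family relatives, 6 were tested, and with TNF against untreated 2 rose (Tpm3 and Tpm4) and 1 fell, with a median log2 fold change of 0.12 against 0.0 over all genes. The 1 that fell was Tmod1, tropomodulin 1, which caps the pointed end of actin filaments. It had 8.89, 8.64 and 9.52 FPKM with TNF plus WBG, 8.96, 8.19 and 6.50 with TNF and 12.6, 13.2 and 14.6 untreated, so treated and untreated libraries did not overlap. The log2 fold change was -0.71 ± 0.10 for TNF against untreated (limma adjusted p = 0.00249), kept in every alternative. It was -0.53 ± 0.10 for TNF plus WBG against untreated (adjusted p = 0.0132), where the call was lost without untreated replicate 3 (0.0537) and without TNF plus WBG replicate 2 (0.0529). For TNF against untreated the count that rose was 1 when the omitted library was the first of any group or TNF plus WBG replicate 2. It was 0 when replicate 2 or 3 of the untreated or the TNF group was omitted.

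Myosin II and the control of its light chain made up 21 identifiers, of which 19 were tested. With TNF against untreated, 6 rose and 0 fell, with a median log2 fold change of 0.11. At an unadjusted p under 0.05, 8 were higher and 1 lower, beside 13.1% of all genes higher and 10.9% lower. The count that rose was 3 without TNF replicate 3 and 4 to 6 without any other library. By size of change the leading ones were Myl12b and Dapk3, a kinase that phosphorylates the light chain. Myl12b has 2 overlapping identifiers, and 95.6% of the 50-base stretches of the second also occur in other genes, mostly the first, so the split of reads between them is uncertain. The first (ENSMUSG00000034868) rose by 0.22 ± 0.04 on the log2 scale (limma adjusted p = 0.00526). The second (ENSMUSG00000117098) rose by 0.67 ± 0.16 (adjusted p = 0.0278), a call lost on omitting untreated replicate 2 or 3 or any single TNF library (adjusted p up to 0.0965). Dapk3 had 42.5, 43.2 and 41.4 FPKM with TNF plus WBG, 44.4, 54.3 and 48.4 with TNF and 38.5, 37.9 and 41.2 untreated, a rise of 0.31 ± 0.07 (adjusted p = 0.0216) with TNF, lost without untreated replicate 1 or 2 (0.0707 each) or TNF replicate 3 (0.0598).

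Among the others that rose, named here after their values were seen, Myh9, the main non-muscle myosin heavy chain, had 183, 185 and 186 FPKM with TNF plus WBG, 185, 185 and 182 with TNF and 157, 162 and 154 untreated. Its log2 fold change was 0.22 ± 0.03 for TNF against untreated (limma adjusted p = 0.00144) and 0.22 ± 0.03 for TNF plus WBG against untreated (adjusted p = 0.00148). Rhoc, a small GTPase upstream of stress fibres, and Myl6, the essential light chain, rose by 0.22 ± 0.04 (adjusted p = 0.00712) and 0.23 ± 0.05 (adjusted p = 0.0182) with TNF. The Myl6 call was lost on omitting replicate 1 or 3 of the untreated group or replicate 2 or 3 of the TNF group. For TNF plus WBG against untreated 3 of the 19 rose (Myh9, Rhoc and the second Myl12b) and 0 fell, with 1 lower at an unadjusted p under 0.05 beside 10.5% of all genes, and the count was 1 without untreated replicate 3. Among these, Rhoc (0.18 ± 0.04, adjusted p = 0.0224) also lost its call without any one untreated library or TNF plus WBG replicate 2, and the second Myl12b (0.77 ± 0.16, adjusted p = 0.0159) without untreated replicate 3 (0.0624) or TNF plus WBG replicate 1 (0.054).

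Of 25 genes that anchor and crosslink stress fibres, 23 were tested, and with TNF against untreated 3 rose and 4 fell, with a median log2 fold change of 0.08. Palld, palladin, which crosslinks actin bundles, had 29.3, 26.9 and 23.9 FPKM with TNF plus WBG, 28.3, 29.3 and 29.9 with TNF and 23.1, 24.2 and 22.4 untreated, a rise of 0.32 ± 0.07 on the log2 scale (limma adjusted p = 0.0205). Csrp2, a LIM protein of smooth muscle and fibroblasts, fell by 0.34 on the log2 scale (SE 0.07, adjusted p = 0.0177), and Vim, vimentin, an intermediate filament protein, fell by 0.28 (SE 0.07, adjusted p = 0.0423). These calls depended on single libraries. The count was 0 higher and 1 lower without untreated replicate 1 or without untreated replicate 3, 2 and 2 without untreated replicate 2, 3 and 1 without TNF replicate 1, 0 and 2 without TNF replicate 2 or TNF replicate 3, and 2 and 3 without any single TNF plus WBG library. Further calls, named after their values were seen, were Vasp, an actin filament elongator (0.15 ± 0.04, limma adjusted p = 0.046, lost on omission of any 1 of the 9 libraries), Pxn, paxillin (-0.26 ± 0.06, adjusted p = 0.0212, lost on omitting replicate 1 or 3 of the untreated group or TNF replicate 3), and Tln1, talin (-0.15 ± 0.04, adjusted p = 0.0303, lost without any one untreated library or either of TNF replicates 1 and 2).

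Of the serum response factor, myocardin and TEAD regulators, 17 were found and 15 tested. With TNF against untreated limma called 0 in either direction, and Tead2 was called lower without TNF replicate 3. At an unadjusted p under 0.05, 0 of the 15 were higher and 2 lower, beside 13.1% of all genes higher and 10.9% lower. The median log2 fold change was -0.03. Srf itself had 17.3, 15.5 and 18.2 FPKM with TNF plus WBG, 19.3, 19.2 and 19.3 with TNF and 18.0, 17.8 and 17.3 untreated. The TNF libraries were the highest 3 of the 9, and no difference passed (0.12 ± 0.06, adjusted p = 0.261 for TNF against untreated). The largest change was that of Vgll3, a TEAD cofactor, at -0.19 ± 0.12 (adjusted p = 0.405). For TNF plus WBG against untreated 0 rose and 1 fell, Scx, a tendon and fibroblast transcription factor named after its values were seen (-0.27 ± 0.06, adjusted p = 0.0186). That count was 0 on omitting untreated replicate 1 or either of TNF plus WBG replicates 1 and 2, and 2 on omitting TNF plus WBG replicate 3.

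Of the known targets of serum response factor or YAP, 14 were found and 12 tested. With TNF against untreated 2 rose and 1 fell, also without any single library, and the median log2 fold change was 0.10. Ankrd1, a nuclear ankyrin-repeat protein and YAP target, had 17.4, 17.1 and 15.5 FPKM with TNF plus WBG, 19.0, 17.5 and 18.1 with TNF and 12.3, 13.4 and 11.8 untreated, and rose 1.46-fold with TNF (log2 fold change 0.51 ± 0.06, limma adjusted p = 0.00118). Ccn1, a matricellular protein, had 65.2, 62.7 and 65.9 FPKM with TNF plus WBG, 74.3, 77.4 and 80.5 with TNF and 62.6, 62.7 and 66.6 untreated, and rose 1.21-fold with TNF (0.27 ± 0.04, adjusted p = 0.00428). Egr1, an immediate-early transcription factor, had 3.63, 3.41 and 4.39 FPKM with TNF plus WBG, 4.59, 4.86 and 4.52 with TNF and 7.24, 7.25 and 7.76 untreated, and fell to 0.628 times the untreated level with TNF (-0.57 ± 0.08, adjusted p = 0.00223). The TNF libraries were the highest 3 of the 9 in 3 of the 12 targets (Ankrd1, Ccn1 and Srf), beside 3.39% of all genes. Outside the targets this held for Actb, for 3 of 19 in the myosin II list (1 Myl12b identifier, Dapk3 and Rhob), for 1 of 23 in the anchorage list (Csrp1) and for 0 of 6 thin-filament relatives. Among cell type markers it held for 2 of 10 fibroblast markers (Col1a1 and Col1a2) and for no tested gene of the other marker lists. It also held for 1 of 15 regulators, which is Srf again. Srf is in both the target and the regulator list, so their counts are not independent. Rhob and Csrp1 are named after their values were seen.

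In the comparison of TNF plus WBG against TNF, limma called 0 genes of any of these lists. At an unadjusted p under 0.05, 0 targets were higher and 4 lower, beside 4.18% of all genes higher and 4.88% lower. A negative log2 fold change was found in 11 of the 12 targets and in 51.1% of all genes, and the targets' median was -0.10 against -0.003 over all genes. The sign was also negative in 4 of the 6 listed genes, 5 of 6 thin-filament relatives and 2 of 2 other actins. For the remaining lists it was negative in 14 of 23 anchorage genes, 9 of 19 of the myosin II list and 6 of 15 regulators. The same unadjusted counts were 0 higher and 2 lower of 19 for myosin II, 2 and 1 of 23 for anchorage, 0 and 2 of 15 for regulators, 0 and 0 of 6 for thin-filament relatives and 0 and 1 of 2 for other actins. The largest changes, none of which passed, were those of Ccn1 among targets (-0.26 ± 0.04, adjusted p = 0.173), Ppp1cb, a catalytic subunit of myosin phosphatase (0.45 ± 0.35, adjusted p = 0.749), Parva, a parvin of focal adhesions (-0.76 ± 0.29, adjusted p = 0.504), Tmod1 (0.18 ± 0.10, adjusted p = 0.662), Actg1 (-0.11 ± 0.19, adjusted p = 0.906) and Tead3, a TEAD factor (0.18 ± 0.10, adjusted p = 0.646). Ppp1cb had 36.8, 36.5 and 36.6 FPKM with TNF plus WBG and 32.1, 15.8 and 36.5 with TNF. Its log2 fold change was 0.095 without TNF replicate 2. Parva had 20.2, 20.1 and 22.4 FPKM with TNF plus WBG and 44.2, 45.6 and 22.9 with TNF. For TNF plus WBG against untreated, Egr1 fell to 0.514 times the untreated level (-0.81 ± 0.08, limma adjusted p = 0.000337) and Ankrd1 rose (0.39 ± 0.06, adjusted p = 0.00575). Thbs1, a matricellular protein named after its values were seen, fell (-0.38 ± 0.05, adjusted p = 0.00213).

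**Figure D5:**
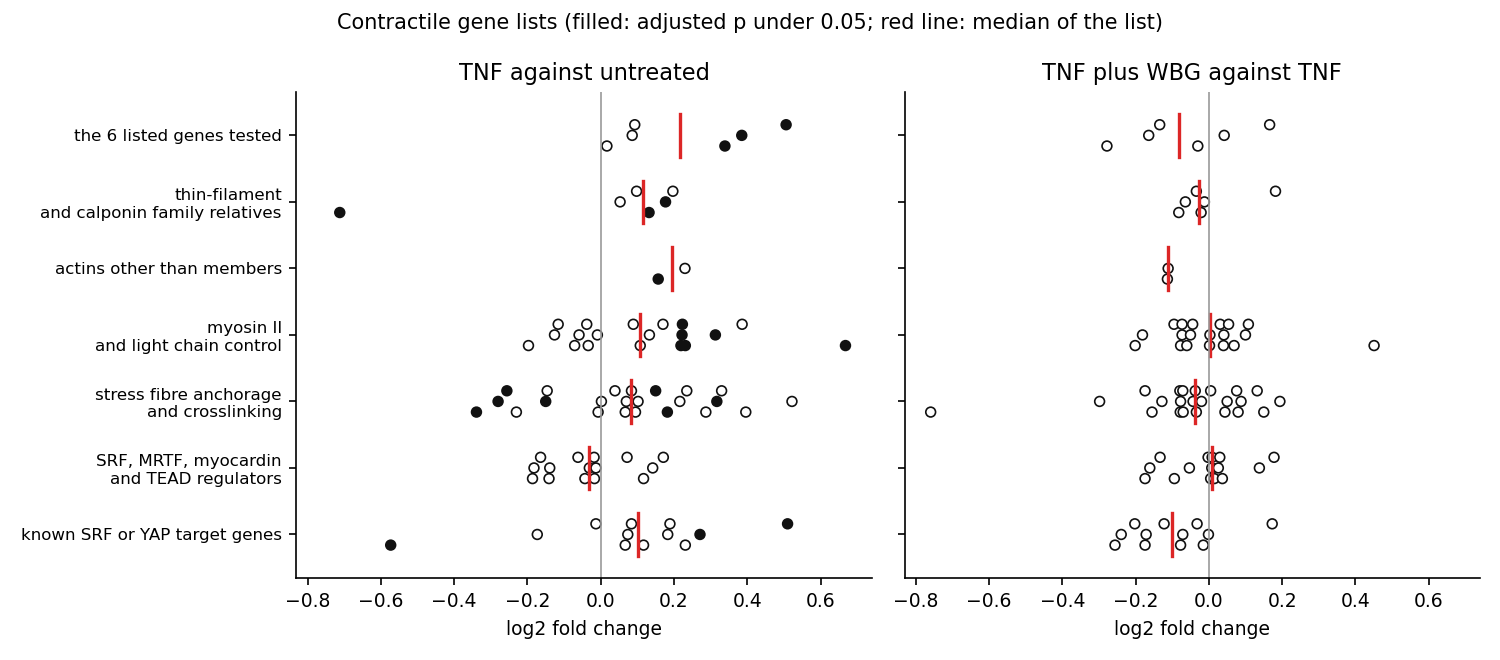
Log2 fold change (x axis) of each tested gene, by list (rows), for TNF against untreated and for TNF plus WBG against TNF; filled points have an adjusted p under 0.05 and red lines are list medians. Filled points occur for TNF against untreated only, where the median of the 6 listed genes is 0.22.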

How the data were processed

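Polyadenylated RNA of 9 libraries had been sequenced as paired-end reads (per the labels' protocols). The values are FPKM as deposited by the authors, 1 per Ensembl gene and library. Program, aligner, annotation and build: not given in the sources used here. The table holds no counts, so there are no counting intervals. Symbols came from GENCODE M21 (55144 of 56289 identifiers; 1145 had none). Genes with at least 1 FPKM in at least 3 libraries were kept (13026). Values as log2(FPKM + 1), a pseudocount of 1, went into limma 3.58.1 in R 4.3.3 (trend, group as the only term, all 9 libraries); tests were two-sided with Benjamini-Hochberg adjustment and a threshold of 0.05. Fold values are ratios of mean FPKM, errors of means are SD, and errors of log2 fold changes are SE. The log2(FPKM + 1) scale understates changes of low genes. The steps were tested on simulated data. Shares within a protein family were tested by exact two-sided permutation over libraries. Sequence shared between genes was counted as 50-base stretches of the GENCODE M21 transcripts found in transcripts of another gene.

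The 10 genes and all lists were chosen with earlier results of these data known. Besides the 10, the text names up to 2 called genes per direction of each list that is no marker list (the largest log2 fold changes, for TNF against untreated and for TNF plus WBG against TNF), the largest change where none was called, Actb, Actg1, Tpm3, Tpm4, Cnn3, Tagln3, Srf and Myh11, and the 5 genes most like Tpm1. Some genes that this rule or the lists include are not reported here. Alternatives were pseudocounts of 0.1 and 5, no filter, a mean of at least 5 FPKM, median-ratio scaling, quantile normalization, no trend, a replicate block, only the 6 libraries compared, and omission of each library. Promoters are those of RefSeq on GRCm38.p6. The other tools were matplotlib 3.10.9, pandas 2.3.3, numpy 2.4.6 and python 3.11.15.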

Additional observations from a re-analysis of the deposited data

How the results depend on the processing

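The calls of the 6 tested contractile genes were the same in all 162 results that omitted 1 library and in all 162 results under the other alternatives, with 3 rising for TNF against untreated, 0 called for TNF plus WBG against TNF and 2 rising for TNF plus WBG against untreated. Counts over all genes moved more. For TNF against untreated 1386 genes were called, and 920 to 1299 when 1 library was omitted, the fewest without TNF replicate 3. For TNF plus WBG against TNF 13 were called, 7 with only the 6 libraries compared and 8 to 14 with 1 library omitted, the fewest without untreated replicate 1. For TNF plus WBG against untreated 1197 were called, and 814 to 1113 with 1 library omitted. A replicate block gave 1159, 8 and 1046 calls in these comparisons. With the block Tpm3 lost its call for TNF against untreated (limma adjusted p = 0.0641). Vgll3 gained a call for TNF plus WBG against untreated (0.0403). The labels do not say whether replicate numbers pair the samples. Deviations of same-numbered libraries correlated at -0.072 to 0.107, and those of differently numbered libraries at -0.096 to 0.095. No pairing was seen in these values, which cannot exclude it, and the block is given only here. Actg2, Tagln, Cnn1 and Myl9 entered the limma fit without the filter, and none was called, with adjusted p of 0.0793 to 0.949. Of 702 results of the other named genes with 1 library omitted, 653 kept their side of the threshold, 46 lost it and 3 gained it; under the other alternatives 676 of 699 kept it, 22 lost it and 1 gained it. None reversed. Without counts, the precision of levels below 1 FPKM cannot be given.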
